A study of Equus caballus with 10 samples.

Results

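A group of 6 CC chemokine genes was taken by name from the deposited expression table of equine tenocytes: CCL2, CCL5, CCL7, CCL8, CCL11 and CCL20. Of these, 5 have a row among the 29196 genes of the table. No row is named CCL7, so CCL7 was not analysed here under that name. CC chemokines are small secreted proteins with a pair of adjacent cysteines near the start of the mature chain. They bind receptors with 7 membrane spans on leukocytes and guide these cells along a gradient held on matrix and cell surface sugars. Fibroblast-like cells make them when IL-1 receptors signal through MyD88 and the IRAK kinases to NF-κB, and in injured tendon they take part in recruiting monocytes and other leukocytes.

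Tenocytes came from the superficial digital flexor tendon of horses, as primary cells, and were kept for 14 days in 3D collagen gels. All gels received PF-06650833, which inhibits the IL-1 receptor kinase IRAK-4, daily at 100 nM. In the first group, called the inhibitor group below, PF-06650833 was given alone. In the second, called the IL-1β group, it was combined with IL-1β at 17 ng/ml, added every 3 to 4 days. Each group held 5 libraries, and tenocytes of the same 5 donors gave 1 library to each group, so every donor can be followed from one treatment to the other. The cells had been passaged in culture and several gels went into each RNA preparation. Libraries without the inhibitor were not used here, so the values give the response to IL-1β while IRAK-4 is inhibited, and not the effect of the inhibitor.

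The values are log2 expression levels that the authors had normalized between libraries and variance-stabilized. On this scale the lowest value of 3.43 stands for 0 reads, and differences between low values are compressed, so the change of a gene with few reads is understated. Read numbers given below were estimated by inverting the transformation and are approximate. The estimated depth was 26672336 to 36058789 reads per library in the inhibitor group and 26982928 to 33258493 in the IL-1β group. Differential expression was called with limma over 17992 tested genes, where the adjusted p was below 0.05 and the log2 fold change was at least 1 in size. Errors of fold changes are given as standard errors (SE) or 95% confidence intervals (CI). Unless a donor term or the replicate block is named, calls, errors and p-values come from a fit that leaves out the pairing by donor. Of all tested genes, 3.11% were differentially expressed and higher in the IL-1β group and 3.57% were lower. Across all tested genes the median change was -0.006 on the log2 scale.

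Of the tenocyte markers, SCX, MKX, COL1A1 and COL1A2 were above the lowest value in all 10 libraries, while the late marker TNMD was at the lowest value in all 10. Of 7 tenocyte markers tested, SCX (log2 fold change -3.24, adjusted p = 0.000611) and MKX (-2.85, adjusted p = 0.00554), both tendon transcription factors, were lower in the IL-1β group, and 4 were lower with a donor term. DCN, the gene of the matrix proteoglycan decorin, went the other way, with higher values in 5 of 5 donors, and did not pass (log2 fold change 1.01, SE 0.57, adjusted p = 0.268, and 0.0529 with the replicate block). Of 12 leukocyte markers, 6 were at the lowest value in all 10 libraries, among them TYROBP, AIF1 and CD3E. PTPRC, which encodes the common leukocyte antigen CD45, had an estimated 3 reads in 1 library of the inhibitor group and 0 in the other 9. ITGAM, in contrast, was above the lowest value in all 10 libraries, with 1 to 25 estimated reads in the inhibitor group and 1 to 30 in the IL-1β group. It did not pass (log2 fold change 0.37, SE 0.38, adjusted p = 0.568). The summed normalized counts of the leukocyte list ranged from 61.3 to 1768 in the inhibitor group and from 171 to 1944 in the IL-1β group. CD14 and CD68, which fibroblasts can also express, made up most of these sums, and CD68 rose in the IL-1β group (log2 fold change 1.70, SE 0.35, adjusted p = 0.00795). CD14 had 1458, 234, 0, 0 and 0 estimated reads in donors 1 to 5 in the inhibitor group and 1374, 617, 0, 292 and 1045 in the IL-1β group. In donors 4 and 5 it thus had reads in the IL-1β library and 0 in the inhibitor library, and over all donors it did not pass (log2 fold change 2.66, SE 1.72, adjusted p = 0.34). The summed counts of 5 endothelial markers ranged from 6.83 to 38.3 and from 3.88 to 26.2. The part of these markers in the results below was not tested. In bulk RNA, more cells that express a gene and more RNA per cell cannot be told apart.

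Among the 5 CC chemokines with a row, 4 were differentially expressed between the groups, and all 4 were higher with IL-1β, the direction called for 3.11% of all tested genes. These were CCL2, CCL8, CCL5 and CCL20. CCL8 entered the test only through the IL-1β group, in which it is high, so it had to differ, and the count without it is 3 of 4. CCL11 was higher in 4 of 5 donors and did not pass without a donor term. With the replicate block, in which each donor is compared with itself, the number was also 4, with CCL11 in place of CCL5. Without CCL8 it was again 3 of 4. In that fit, 4.01% of all tested genes were called higher and 4.25% lower. The groups did not overlap for CCL2 and CCL20, which was the case, in the direction of higher with IL-1β, for 6.29% of all tested genes. They did not overlap for CCL8 either, but there the filter had fixed this outcome. The median log2 fold change over the 5 genes, CCL8 included, was 2.40.

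**Figure D1:**
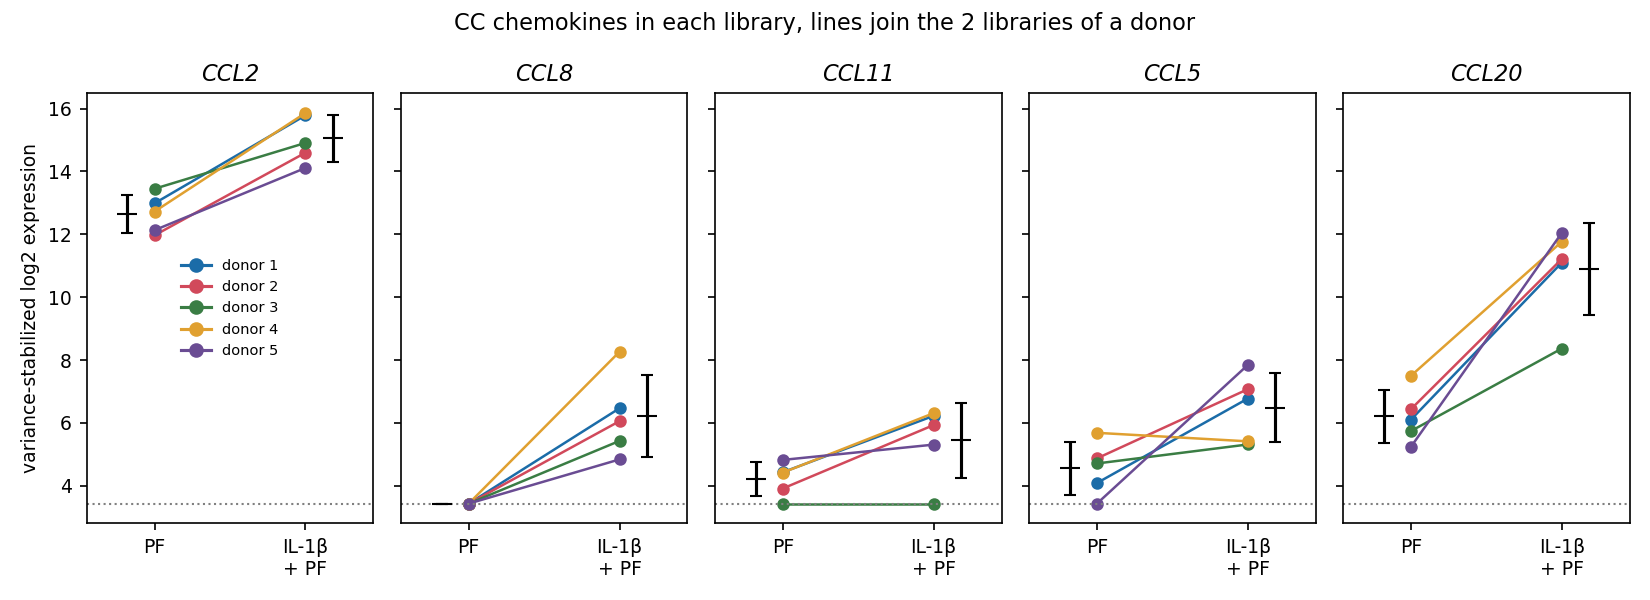
Variance-stabilized log2 expression (y axis) of 5 CC chemokines in each of 10 libraries, the inhibitor group (PF, for PF-06650833 alone) on the left and the IL-1β group (IL-1β with PF-06650833) on the right of each panel. Lines join both libraries of a donor, black marks give the mean ± SD of 5 libraries and the dotted line is the value of 0 reads; CCL2 and CCL20 rise in all 5 donors, CCL8 rises from 0 reads in all 5, and CCL5 falls slightly in donor 4.

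CCL2, the main monocyte chemoattractant and a ligand of CCR2, was already expressed without IL-1β. In the inhibitor group its log2 expression was 12.99, 11.97, 13.45, 12.72 and 12.13 in donors 1 to 5, which corresponds to 3019 to 8549 estimated reads. In the IL-1β group it was 15.78, 14.60, 14.91, 15.86 and 14.11 in the same donors, or 15188 to 46048 reads. The lowest library with IL-1β lay above the highest without it. The mean rose from 12.65 ± 0.61 (SD, n = 5) to 15.05 ± 0.76 (SD, n = 5). The log2 fold change was 2.40 (SE 0.38, 95% CI 1.57 to 3.23, adjusted p = 0.00218). Within donors, the normalized count was between 2.75-fold higher in donor 3 and 8.80-fold higher in donor 4. Donor 3 had the highest CCL2 level of the group without IL-1β and the third highest with it.

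CCL8, a monocyte chemoattractant protein related to CCL2, had 0 reads in all 5 libraries of the inhibitor group. In the IL-1β group it was at 6.47, 6.06, 5.43, 8.27 and 4.84 in donors 1 to 5, which corresponds to 56, 41, 21, 204 and 10 estimated reads. CCL8 was thus found in every library with IL-1β and in none without it, and donor 4 stood above the others. The mean with IL-1β was 6.21 ± 1.30 (SD, n = 5), and the log2 fold change from limma was 2.78 (SE 0.51, 95% CI 1.65 to 3.90, adjusted p = 0.00484). Since the gene was tested only through the group in which it is high, this p is no independent evidence of the direction. Against a floor of 3 reads per library, the mean normalized count was at least 24.7-fold higher with IL-1β, and the bound within a donor ranged from 3.56-fold in donor 5 to 87.8-fold in donor 4.

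CCL11, or eotaxin, which attracts eosinophils through CCR3, had few reads in both groups. In the inhibitor group it was at 4.43, 3.91, 3.43, 4.42 and 4.82 in donors 1 to 5, at most 10 estimated reads. In the IL-1β group it was at 6.23, 5.93, 3.43, 6.31 and 5.31, or 45, 36, 0, 42 and 18 reads. CCL11 was higher in 4 donors, while donor 3 had 0 reads under both treatments, so the groups overlapped. The means were 4.20 ± 0.54 (SD, n = 5) and 5.44 ± 1.19 (SD, n = 5). The log2 fold change was 1.24 (SE 0.51, 95% CI 0.11 to 2.36, adjusted p = 0.131). With the replicate block the adjusted p was 0.0341, and the gene was differentially expressed. Without donor 3 the log2 fold change was 1.55 (adjusted p = 0.00907), and without the IL-1β library of that donor alone it was 1.74 (adjusted p = 0.00584).

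CCL5, also called RANTES, a ligand of CCR1 and CCR3 among others that attracts T cells and monocytes, differed most between donors. In the inhibitor group it was at 4.09, 4.87, 4.71, 5.69 and 3.43 in donors 1 to 5, from 0 to 30 estimated reads. In the IL-1β group it was at 6.77, 7.07, 5.32, 5.41 and 7.84, or 73, 100, 19, 17 and 179 reads. Donor 5 had no reads without IL-1β and the highest level with it, whereas donor 4 had the highest level without IL-1β and was lower by 0.27 with it. The means were 4.56 ± 0.85 (SD, n = 5) and 6.48 ± 1.09 (SD, n = 5). The log2 fold change was 1.93 (SE 0.54, 95% CI 0.73 to 3.12, adjusted p = 0.0353). With the replicate block the gene was no longer differentially expressed (SE 0.61, adjusted p = 0.0578). It also lost the call without the inhibitor library of donor 1, 2, 3 or 5, without the IL-1β library of donor 1, 2 or 5, and without both libraries of donor 1, 2 or 5, with adjusted p-values over all alternatives from 0.00731 to 0.156.

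CCL20 is the ligand of CCR6 and attracts dendritic cells and subsets of T cells. Its log2 fold change was the largest of these genes on the variance-stabilized scale. In the inhibitor group CCL20 was at 6.11, 6.44, 5.74, 7.50 and 5.24 in donors 1 to 5, or 19 to 147 estimated reads. In the IL-1β group it was at 11.10, 11.22, 8.37, 11.77 and 12.05, or 1780, 2073, 271, 2463 and 3625 reads. All libraries with IL-1β lay above all without it, and donor 3 was far below the other 4 with IL-1β. The means were 6.21 ± 0.85 (SD, n = 5) and 10.90 ± 1.47 (SD, n = 5). The log2 fold change was 4.69 (SE 0.65, 95% CI 3.27 to 6.12, adjusted p = 0.00114). This was the 24th largest log2 fold change of the 17992 tested genes. On the log2(normalized count + 1) scale it was 5.17, below the 5.62 of CCL8, which had no reads in the inhibitor group. Within donors the normalized count of CCL20 was between 9.05-fold higher in donor 3 and 217.5-fold higher in donor 5.

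The donors did not rank alike across these genes. Donor 3 had the smallest difference between treatments for 3 of the 5 genes, CCL2, CCL11 and CCL20. Donor 4 had the largest difference for CCL2 and CCL8 and the smallest for CCL5. Donor 5 had the largest difference for CCL5 and CCL20, 4.41 and 6.80 on the log2 scale, and the smallest for CCL8, 1.41. The SD of the difference over the 5 donors was 0.67 for CCL2, 0.93 for CCL11, 1.30 for CCL8, 1.502 for CCL20 and 1.83 for CCL5. CC chemokine genes are related in sequence, and whether reads were shared between them was not tested. CCL8 had 0 reads in the 5 inhibitor libraries, in which CCL2 had 3019 to 8549.

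**Figure D2:**
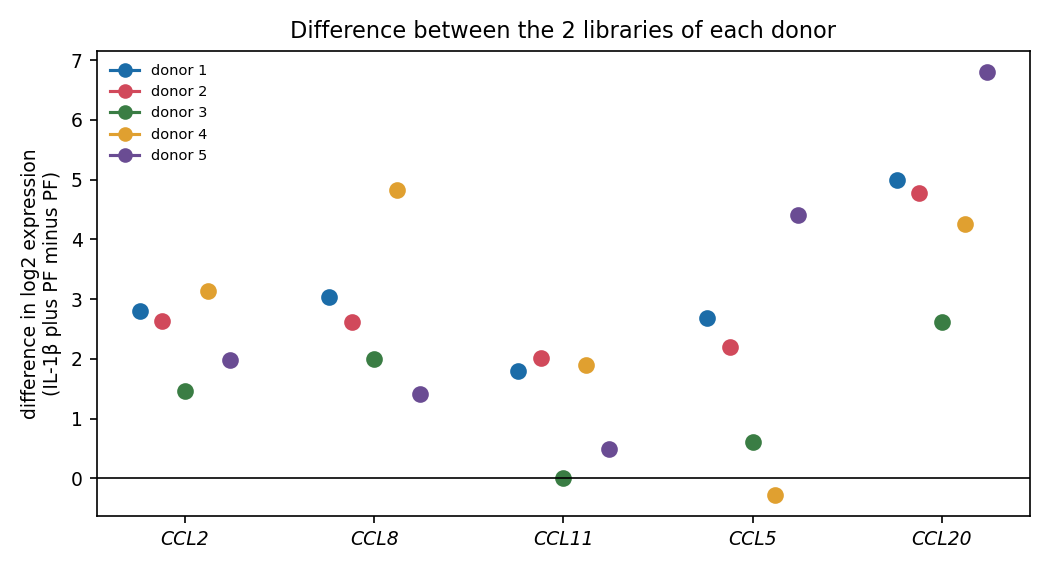
Difference in variance-stabilized log2 expression between the libraries of the IL-1β group and the inhibitor group (y axis) for each of 5 CC chemokines, 1 point per donor. Donor 3 has the smallest difference for CCL2, CCL11 and CCL20, and CCL5 runs from -0.27 in donor 4 to 4.41 in donor 5.

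The profiles over the 10 libraries were compared by the root mean square difference of log2 values after centring each gene on its own mean, over 13864 other tested genes with a symbol. The genes nearest to CCL2 were FBXL2 (0.33), WDR86 (0.40) and SOD2 (0.46), the gene of the mitochondrial superoxide dismutase. Nearest to CCL8 were CD274 (0.35), which encodes the checkpoint ligand PD-L1, CXCL11 (0.39), an interferon-inducible chemokine, and ETV7 (0.39). Nearest to CCL5 were ITGB6 (0.43), C13H16orf54 (0.52) and NABP1 (0.54), and among the nearest to CCL11 were GLIPR1 (0.43) and DSCC1 (0.46). Nearest to CCL20 were a row named IL1B_1 (0.76), IL13RA2 (0.99), which encodes a decoy receptor of IL-13, and SLC16A6 (1.02). Among the CC chemokines themselves, CCL2 and CCL8 were the closest pair (0.66) and CCL11 and CCL20 the most distant (1.90). These values describe likeness in size as well as in shape and carry no test.

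RefSeq's annotation of a different horse genome build served for gene names and gene order. There, CCL1, CCL13, CCL8, CCL11, LOC100071714 and CCL2 follow each other in this order with no other protein-coding gene between them. CCL5 lies elsewhere, between CCL16 and HEATR9, and CCL20 next to DAW1. Neighbours in this order had different values. CCL13, between CCL1 and CCL8, did not exceed 15 estimated reads per library and had a log2 fold change of 0.007 (SE 0.33, 95% CI -0.72 to 0.74, adjusted p = 0.992). LOC100071714, between CCL11 and CCL2, is not named further in the sources used here and was picked after its values had been seen. Whether this row holds CCL7 could not be settled from these sources. It was at 8.97 to 10.13 in the inhibitor group and at 12.10 to 12.52 in the IL-1β group, with 363 to 839 and 3547 to 4776 estimated reads. Its groups did not overlap, and its log2 fold change was 2.87 (SE 0.20, adjusted p = 3.9e-05).

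Of 18 other CC ligands on the list, 14 have a row and 6 could be tested, of which 1 was differentially expressed, CCL1. It was higher, the direction called for 3.11% of all tested genes. CCL1, the ligand of CCR8, was at 3.43 to 5.35 in the inhibitor group and at 5.81 to 9.93 in the IL-1β group, with at most 17 and with 26 to 819 estimated reads. Its log2 fold change was 3.57 (SE 0.69, adjusted p = 0.0063). The RefSeq annotation types CCL1 as a miscellaneous RNA and not as protein coding. CCL26, an eotaxin that shares CCR3 with CCL11, was at 5.64 to 8.82 and at 8.23 to 11.07, overlapping but higher in 5 of 5 donors, with a log2 fold change of 2.31 (SE 0.72, adjusted p = 0.0533). With the replicate block CCL26 was differentially expressed (SE 0.42, adjusted p = 0.00773), which made 2 of the 6. It also passed without the inhibitor library of donor 1 or 2 or the IL-1β library of donor 3 or 4, with adjusted p-values from 0.0352 to 0.0429.

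The other tested ligands gave intervals on both sides of 0. CCL22, a ligand of CCR4, had 349 to 552 estimated reads in every library and a log2 fold change of -0.13 (95% CI -0.45 to 0.18). CCL19, a ligand of CCR7, had a log2 fold change of 0.25 (95% CI -0.96 to 1.46) and CCL28, a mucosal chemokine, of 0.17 (95% CI -0.36 to 0.69), with at most 54 and 5 estimated reads. CCL3, CCL4, CCL15 and CCL16 were at the lowest value in all 10 libraries. CCL17, CCL24, CCL25 and CCL27 had reads in 3 or 4 libraries, at most 16, and were not tested.

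**Figure D3:**
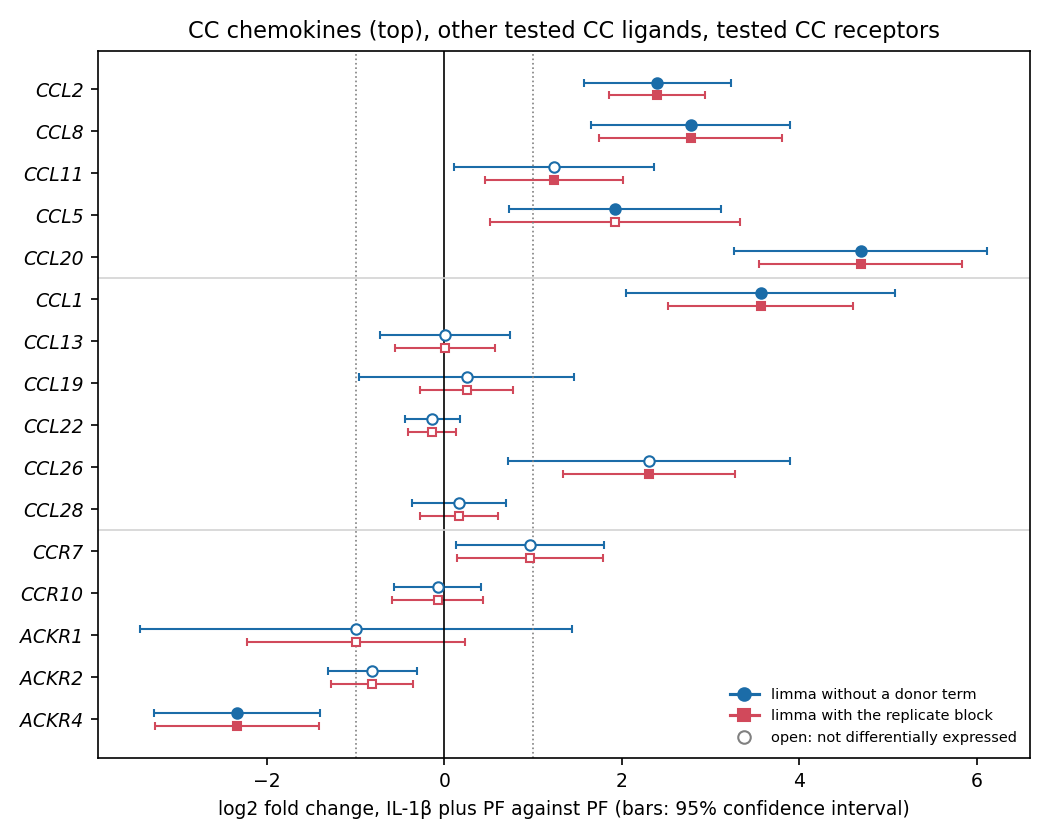
Log2 fold change of the IL-1β group against the inhibitor group (x axis) with its 95% CI, for 5 CC chemokines, 6 other CC ligands and 5 receptors, from limma without a donor term (circles) and with the replicate block (squares). Filled marks are differentially expressed; CCL5, CCL11 and CCL26 change their call between the fits, and ACKR4 is the only filled mark below 0.

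Of 14 receptors of CC chemokines on the list, 13 have a row, and 6 were at the lowest value in all 10 libraries. These 6 include CCR2, CCR3 and CCR6, a signalling receptor for each of CCL2, CCL11 and CCL20 in turn. CCR8, the receptor of CCL1, had 1 estimated read in 1 library, and CCR1 has no row. Tests could be made for 5 receptors, of which 1 was differentially expressed and lower, against 3.57% of all tested genes. ACKR4, an atypical receptor that takes up CCL19, CCL21 and CCL25, fell from 8.21 ± 0.92 (SD, n = 5) to 5.87 ± 0.55 (SD, n = 5). The log2 fold change was -2.34 (SE 0.43, adjusted p = 0.00467). It was lower in 5 of 5 donors, with 74 to 495 estimated reads in the inhibitor group and 12 to 48 in the IL-1β group.

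ACKR2, the atypical receptor that scavenges inflammatory CC chemokines such as CCL2, CCL5, CCL8 and CCL11, was at 6.82, 7.09, 7.09, 7.31 and 6.61 in donors 1 to 5 in the inhibitor group. In the IL-1β group it was at 6.39, 6.21, 6.65, 5.85 and 5.74. It was lower in all 5 donors, but the groups overlapped between 6.61 and 6.65. The log2 fold change was -0.82 (SE 0.23, adjusted p = 0.0343), which is under the minimum fold change. On the log2(normalized count + 1) scale it was -1.02 (adjusted p = 0.0368), which passes it. With quantile normalization the adjusted p was 0.0571, above its threshold. When libraries or donors were left out, the adjusted p ran from 0.0197 to 0.129. It then stayed below threshold only without the inhibitor library of donor 5, the IL-1β library of donor 3 or both libraries of that donor. ACKR1, which binds many chemokines without signalling, ranged from 4.08 to 10.23 in the inhibitor group and from 3.43, or 0 reads, in donor 4 to 7.07 in the IL-1β group (log2 fold change -0.996, 95% CI -3.43 to 1.44). CCR7 had a log2 fold change of 0.97 (adjusted p = 0.112) and CCR10 of -0.07 (adjusted p = 0.869).

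**Figure D4:**
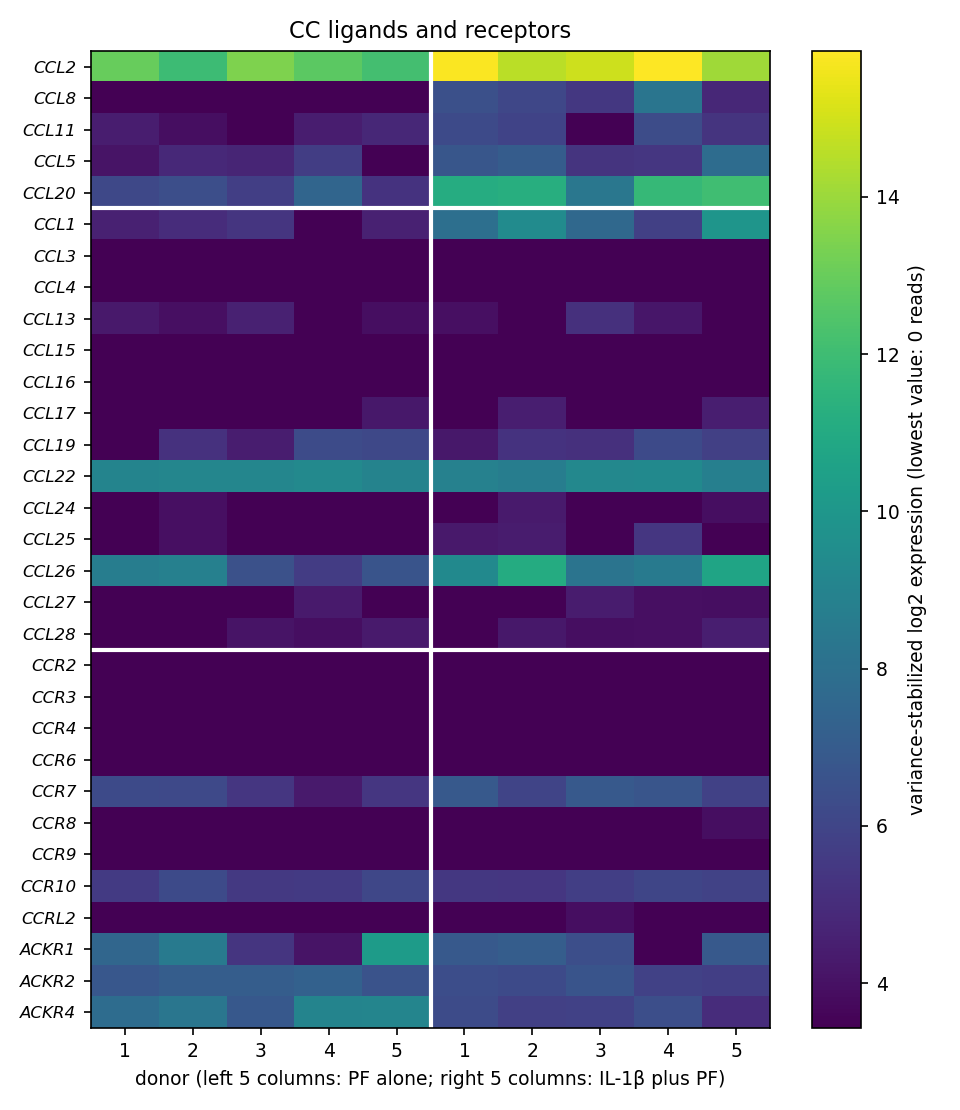
Variance-stabilized log2 expression (colour) of 5 CC chemokines (top block), 14 other CC ligands (middle) and 12 of the 13 receptors with a row (bottom) in 10 libraries, by donor, with the inhibitor group (PF alone) in the left 5 columns and the IL-1β group (IL-1β plus PF) in the right 5. Each row should be read along the libraries, since values are not per length; the darkest colour is 0 reads, which CCR2, CCR3 and CCR6 show in every library.

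Of 11 genes whose products cleave or hold CC chemokines, 10 could be tested, 2 were higher and 2 lower. Of all tested genes, 3.11% were called higher and 3.57% lower. DPP4, the protease that trims CCL5 and CCL11, was at the lowest value in all 10 libraries. The matrix metalloproteinases MMP3 (log2 fold change 5.40, SE 1.02, adjusted p = 0.00542) and MMP1 (5.97, SE 1.42, adjusted p = 0.0165), which can clip monocyte chemoattractant proteins, rose in 5 of 5 donors. Syndecans carry heparan sulfate chains that can bind chemokines. SDC3 (log2 fold change -1.87, SE 0.43, adjusted p = 0.0146) and SDC2 (-1.61, SE 0.43, adjusted p = 0.0265) fell in 5 of 5 donors. SDC1 went the other way, higher in 5 of 5 donors but under the minimum fold change (0.54, adjusted p = 0.045). SDC4 had a log2 fold change of 0.02 (adjusted p = 0.951). SDC2 lost the call without the inhibitor library of donor 1, 4 or 5, without the IL-1β library of donor 1, 2 or 5, and without both libraries of donor 1, 2, 3 or 5, with log2 fold changes from -1.99 to -1.26 when single libraries or donors were removed. SDC3 lost it without donor 2 or 5 and MMP1 without donor 1 or 5, with adjusted p-values of 0.0731, 0.0737, 0.0678 and 0.0919. These fits with libraries or donors removed had no donor term. With the replicate block and all libraries, MMP1 (adjusted p = 0.00154), SDC3 (0.00183) and SDC2 (0.0108) were differentially expressed.

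Of 14 regulators of chemokine transcription or mRNA, 8 were higher in the IL-1β group, against 3.11% of all tested genes. NFKBIZ (log2 fold change 2.92, SE 0.22, adjusted p = 7.28e-05), a nuclear cofactor of NF-κB, NFKB2 (1.32, SE 0.10, adjusted p = 7.28e-05), NFKBIA (1.64, SE 0.14, adjusted p = 1.07e-04), the inhibitor that holds NF-κB in the cytoplasm, and CEBPB (1.495, SE 0.15, adjusted p = 1.86e-04) had the smallest adjusted p-values among them. Each was higher in 5 of 5 donors. Of the 6 regulators not called, REL (log2 fold change 0.95, adjusted p = 0.00543) and RELB (0.71, adjusted p = 0.0206) stayed under the minimum fold change. The rest were FOS (0.64, adjusted p = 0.224), ZFP36 (0.27, adjusted p = 0.327), RELA (0.15, adjusted p = 0.288) and JUN (-0.09, adjusted p = 0.863).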

How the data were processed

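RNA of 10 libraries was quantified by the authors with Salmon (version 1.8) on the EquCab3.0 transcriptome with correction for GC bias, imported with tximport and analysed with DESeq2 (version 1.36). The authors deposited variance-stabilized log2 values, normalized between libraries. The transformation is not named in the sources used here and was recognised from the values. No raw counts were used. Groups and donors came from the sample labels, and same-numbered libraries share a donor: the deviations from group means correlated at 0.367 to 0.506 across genes within donors (5 pairs) and at -0.266 to 0.0869 between donors (20 pairs).

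In R (version 4.3.3), limma (version 3.58.1) was run with its trend option on the 17992 genes that 5 or more libraries held above the lowest value, and p-values were adjusted by the Benjamini-Hochberg method. The fit was made without a donor term, as the study names none, and with the replicate number as a block. Normalized counts were recovered by inverting the transformation. The size of a read was then chosen in each library so that the most low values fell near whole numbers. With that choice, 69.1% to 85.9% of each library's low values lay within 0.15 reads of a whole number. This share is thus no independent check of the read numbers. The fit was tested on simulated data. The alternatives were other scales, filters, normalizations, variance models and thresholds, and leaving out libraries or donors. The genes, lists and alternatives were chosen with earlier results of these data known. Named were all CC chemokines, all tested CC ligands and receptors, up to 4 differentially expressed genes of the other lists by adjusted p, and the 3 genes nearest in profile, some of which are not reported here. Genes chosen after their values were seen are named as such in the text. CD68, ITGAM, TNMD, PTPRC and DPP4 serve as checks of their lists, as do SDC1, SDC4 and the regulators that were not called.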

Additional observations from a re-analysis of the deposited data

Results flagged for a closer look

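Of 47 sets of 5 libraries tested (a gene in a group), 4 held a library that stood far apart, where chance gives about 1 in 20 groups, or 2.35. CCL20 was at 8.37 in the IL-1β library of donor 3 (271 estimated reads), against 11.10 to 12.05 in the other 4 donors. ACKR1 was at 3.43, the value of 0 reads, in the IL-1β library of donor 4, against 6.43 to 7.07. CEBPB was at 13.25 in the inhibitor library of donor 3, against 12.67 to 12.82, and at 13.92 in the IL-1β library of that donor, against 14.39 to 14.48. Of these 4, 3 are libraries of donor 3. Without the IL-1β library of donor 3, the log2 fold change of CCL20 was 5.33, and without both libraries of that donor it was 5.21.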

How the results depend on the processing

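The number of differentially expressed CC chemokines stayed within 1.5 times the reported 4 in 27 of 28 alternatives, among them 4 with the replicate block, and was 3 to 5 when a library or donor was left out. It was 2 when a gene had to be above the lowest value in all 10 libraries, since only CCL2 and CCL20 were then tested. The other counts include CCL8, which passed wherever it was tested, so a part of each was fixed by the filter. CCL2 and CCL20 kept their call in all 26 alternative fits. CCL8 passed in the 25 in which it was tested, which says nothing of stability, since only the group in which it is high brought it into the test. The log2 fold changes ran from 2.20 to 2.63 for CCL2, from 4.17 to 5.33 for CCL20 and from 2.26 to 6.60 for CCL8, which was highest on the log2(normalized count + 0.5) scale. CCL5 lost its call in 12 of 25 and CCL11 gained one in 5 of 25, all given above but that with array weights (CCL11 1.36, adjusted p = 0.0414) and, on the log2(normalized count + 1) scale with the replicate block, CCL11 at 2.31 and CCL5 at 3.28. Of other CC ligands, 2 in place of 1 were called with the replicate block, with the block on the log2(normalized count + 1) scale and with array weights, 0 when a gene had to be above the lowest value in all libraries, and 1 to 2 when libraries or donors were left out. Of the receptors, 2 in place of 1 were called on the log2(normalized count + 1) scale with and without the replicate block, on the log2(normalized count + 0.5) scale and without a minimum fold change. Of the genes that cleave or hold chemokines, 1 in place of 4 was called at an adjusted p below 0.01, and 1 to 4 when libraries or donors were left out, with 1 without donor 5. The regulators gave 6 to 10 against 8. CCL13 changed sign with quantile normalization (-0.0085), array weights (-0.11), the log2(normalized count + 1) scale with and without the replicate block (-0.028) and the log2(normalized count + 0.5) scale (-0.14), and ran from -0.27 to 0.16 when libraries or donors were left out. CCL19 was at -0.044 with array weights and ran from -0.17 to 0.55 in those fits, and CCR10 from -0.21 to 0.11. The cause of these changes was not tested. Beside these, the replicate block raised the tenocyte markers called lower from 2 to 4 and changed no other call of a named gene on the lists. Its calls for the genes nearest in profile are not reported here. CCL5, CCL8, CCL11, CCL13 and CCL28 had few reads in the inhibitor group. The part of sequencing depth in their results was not tested.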

Other observations

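Across donors, the difference between treatments in CCL8 followed the order donor 4 (4.83), 1 (3.03), 2 (2.62), 3 (1.99) and 5 (1.41) on the log2 scale. IRF1, the gene of an interferon-regulated transcription factor, was picked after its values had been seen and had its differences in the same order, at 2.98, 2.00, 1.93, 0.99 and 0.78. IRF1 was differentially expressed, with a log2 fold change of 1.74 (SE 0.42, adjusted p = 0.0189). CCL5 and CCL20, in contrast, had their largest differences in donor 5. These are orders of 5 donors noticed in the data, and they carry no test.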
